A study of Homo sapiens with 9 samples.

Results

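The genes described here carry fatty acids into the cell, free them from stored fat and oxidise them in mitochondria and peroxisomes, and include a pair of genes for the use of ketone bodies. They were the 44 rows, of 28216 in the gene count table, with the listed symbols: 10 for uptake and binding, 4 for lipolysis, 7 for the carnitine shuttle, 13 for mitochondrial beta-oxidation, 3 for the electron transfer flavoprotein, 5 for peroxisomal oxidation and 2 for ketone use. The list was set by function, but it was chosen with earlier results of these data known.

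RNA was sequenced from 2 established lines grown from prostate cancer metastases, PC3, which grows without androgen, and LNCaP, which responds to it, with the wild-type genotype in the labels. PC3 cells were untreated and kept in F12K medium. LNCaP cells, grown in RPMI medium, were moved to phenol red-free medium with charcoal-stripped serum, which is poor in steroids, and given 10 nM androgen or vehicle (0.01% ethanol) for 48 h. The labels name the androgen as dihydrotestosterone (DHT), and the text of the study also names R1881, a synthetic androgen. There were 3 libraries in each of the 3 groups. The line, its medium and its serum differed together, so they cannot be told apart in any comparison of PC3 with LNCaP cells. Nothing in the labels says that the 3 libraries of a group came from separate cultures, so the p-values measure the spread between libraries, which may be technical.

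Fatty acids enter through membrane proteins such as CD36 and the SLC27A transporters, are bound by FABP proteins and are joined to coenzyme A. Carnitine carries long chains across the mitochondrial membranes through CPT1, SLC25A20 and CPT2, and each turn of beta-oxidation then runs through an acyl-CoA dehydrogenase, a hydratase, a 3-hydroxyacyl-CoA dehydrogenase and a thiolase, with electrons leaving through the electron transfer flavoprotein. Peroxisomes shorten very long and branched chains, and prostate cancers are known for high AMACR, the racemase that prepares branched chains for this path.

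Counts on genes ranged from 22444083 to 25640325 in PC3, from 21094326 to 23460708 in androgen-treated and from 17397706 to 18674795 in vehicle-treated LNCaP libraries. Levels are given as CPM, which are counts scaled to a common library size, here with TMM factors over all 9 libraries, and levels of different genes are compared only per kilobase of transcript. The summed level of 7 LNCaP luminal markers was between 2991 and 10680 CPM in LNCaP and between 42.0 and 61.7 CPM in PC3 libraries. The summed level of 7 PC3 markers in the LNCaP libraries was between 0.295% and 0.897% of the PC3 mean, and it was highest in androgen replicate 1. Summed markers of adipocytes (5 genes) reached at most 0.866 CPM and those of leukocytes (4 genes) at most 0.518 CPM, while 4 fibroblast markers summed to between 12.7 and 49.6 CPM, with the highest values in PC3 libraries. In bulk RNA, fewer cells that express a gene and less RNA per cell cannot be told apart.

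**Figure D1:**
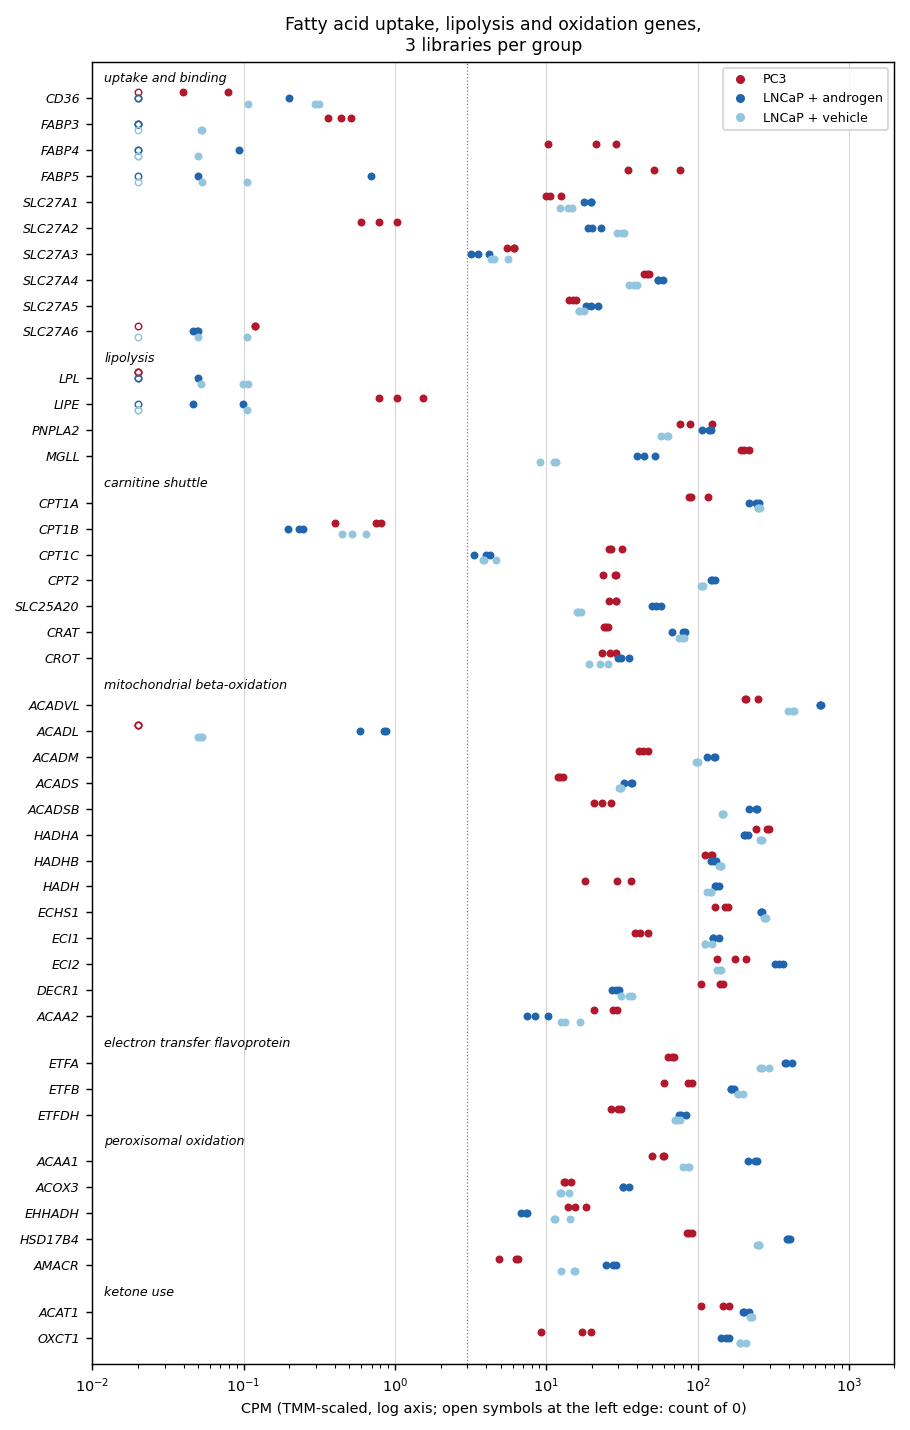
Level of each of the 44 genes in CPM (log axis) in the 3 libraries of each group, ordered by role; open symbols at the left edge are counts of 0 and the dotted line is 3 CPM. FABP4 and FABP5 lie between 10.2 and 76.0 CPM in PC3 libraries and at or below 0.693 CPM in every LNCaP library, while SLC27A2, ACADSB and OXCT1 lie far lower in PC3 libraries.

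Summed over the 44 genes, the level was 2444 ± 142 CPM in PC3, 4807 ± 121 CPM in androgen-treated and 3796 ± 85.9 CPM in vehicle-treated LNCaP cells (SD, n = 3). The steps did not share 1 order among the groups. The peroxisomal genes summed to 180.0 ± 10.8 CPM in PC3, 699 ± 21.4 CPM with androgen and 377 ± 7.74 CPM with vehicle, and the electron transfer flavoprotein genes to 176, 644 and 538 CPM. The lipolysis sum was instead highest in PC3, at 302 ± 35.2 CPM, beside 162 ± 14.6 CPM with androgen and 72.1 ± 3.07 CPM with vehicle. This order rested on MGLL, at 205, 45.5 and 10.7 CPM. PNPLA2, at 96.5, 116 and 61.3 CPM, was not higher in PC3 than with androgen. Uptake and binding summed to 154 ± 28.4 CPM in PC3, 120.0 ± 5.84 CPM with androgen and 105 ± 3.56 CPM with vehicle.

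Per kilobase of the canonical transcript, the gene with the highest level was ECI2 in PC3 (127 ± 27.2 CPM per kb), ACADVL in androgen-treated LNCaP (295 ± 2.40 CPM per kb) and ETFB in vehicle-treated LNCaP cells (218 ± 9.42 CPM per kb). ETFB and ECHS1, at 218 ± 3.26 CPM per kb, did not differ beyond their spread in vehicle-treated cells, and neither did ECI2 and ECHS1, at 115 ± 11.8 CPM per kb, in PC3 cells. FABP5 ranked 7 of 44 in PC3 cells, at 79.9 ± 30.7 CPM per kb, and 36 and 37 in the androgen-treated and vehicle-treated LNCaP cells. OXCT1 ranked 12 of 44 in vehicle-treated LNCaP cells, at 59.7 ± 3.15 CPM per kb, and 31 in PC3 cells, at 4.69 ± 1.69 CPM per kb. These are levels of RNA and not of protein or enzyme activity.

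The first comparison asked which of these genes androgen changed within LNCaP cells. Of the 44 genes, 35 passed the filter on low counts (over 3 CPM in at least 3 libraries of the comparison). A gene was called where its adjusted p-value (edgeR quasi-likelihood test, Benjamini-Hochberg) was under 0.05 and its fold change at least 2. With androgen, 5 of the 35 were called higher, which is 14.3%, beside 6.54% of all 11697 genes tested, and 0 were called lower, beside 7.49%. DESeq2's Wald test also called 0 lower, and 12 were lower at an unadjusted p under 0.05 with no fold limit. The 5 were MGLL, SLC25A20, ECI2, ACAA1 and ACOX3. By the adjusted p-value alone, 20 of the 35 were higher and 11 lower, beside 37.1% and 37.8% of all genes, so most of these differences were below 2-fold. The median log2 fold change was 0.16 over the 35 genes and -0.01 over all genes tested.

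Among the lipolysis genes, MGLL (chr3:127689062-128052190), whose enzyme releases the last fatty acid from a monoglyceride, had 52.1, 44.5 and 40.0 CPM with androgen and 9.16, 11.6 and 11.3 CPM with vehicle. All 3 androgen-treated libraries lay above all vehicle libraries, and the log2 fold change was 2.06 ± 0.11 (SE), with an adjusted p of 1.39e-09. PNPLA2, the lipase of the first step of fat breakdown, was also higher, at 116 ± 8.79 against 61.3 ± 3.47 CPM, a log2 fold change of 0.89 ± 0.06 that stayed under the 2-fold limit. It lay just outside the limit together with AMACR, also at 0.89, while ECI2 at 1.29 was the called gene nearest to it.

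In the carnitine shuttle, SLC25A20 (chr3:48856926-48898904), the carrier that exchanges acylcarnitine for carnitine across the inner membrane, had 52.9, 50.3 and 57.1 CPM with androgen and 16.3, 15.8 and 17.1 CPM with vehicle. The groups did not overlap, and the log2 fold change was 1.67 ± 0.07 (adjusted p = 1.46e-10). The transferases tested in this group of genes moved less. CPT1A, the rate-setting entry step, had a log2 fold change of -0.12 ± 0.05 (adjusted p = 0.0558), CPT1C one of -0.11 ± 0.15 and CRAT one of -0.06 ± 0.06. CPT2 and CROT were higher by 0.20 and 0.48 on the log2 scale.

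Of the 12 mitochondrial beta-oxidation genes tested, only ECI2 was called (8.33% higher, beside 6.54% of all genes). ECI2 (chr6:4115693-4135597), an isomerase that moves double bonds so that unsaturated chains can be oxidised, had 348, 327 and 368 CPM with androgen and 140.0, 143 and 134 CPM with vehicle. The groups were well apart, and the log2 fold change was 1.29 ± 0.05, at an adjusted p of 7.9e-11. The other 11 tested genes of this step passed the adjusted p-value alone, 6 higher and 5 lower. With ECI2, 58.3% of the genes tested in this step passed as higher and 41.7% as lower, beside 37.1% and 37.8% of all genes. The dehydrogenases ACADSB, ACADVL, ACADM and ACADS were higher by 0.66, 0.60, 0.31 and 0.16 on the log2 scale. Among the enzymes of the later steps, the thiolase ACAA2 had a log2 fold change of -0.73 ± 0.14, the reductase DECR1 one of -0.29 ± 0.07, the hydratase ECHS1 one of -0.11 ± 0.04 and the dehydrogenase HADH one of 0.13 ± 0.04.

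HADHA and HADHB encode the 2 subunits of the mitochondrial trifunctional protein, and their transcription starts lie head to head, 307 bases apart, on chromosome 2 (GRCh38). Both were slightly lower with androgen, with log2 fold changes of -0.36 ± 0.03 and -0.17 ± 0.04. In the electron transfer flavoprotein the subunits parted: ETFA was at 396 ± 24.6 CPM with androgen and 274 ± 20.5 CPM with vehicle, a log2 fold change of 0.50 ± 0.05, while that of ETFB was -0.20 ± 0.04. ETFDH, the enzyme that passes their electrons to ubiquinone, had one of 0.07 ± 0.05 (adjusted p = 0.157).

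The peroxisomal genes held both other called members, 2 of 5 tested (40% higher, beside 6.54% of all genes). ACAA1 (chr3:38103129-38137242), the peroxisomal thiolase, had 247, 215 and 238 CPM with androgen and 87.4, 79.5 and 86.3 CPM with vehicle. ACOX3 (chr4:8366282-8440723), an oxidase for branched chains, had 35.0, 32.2 and 32.4 CPM with androgen and 14.2, 12.6 and 12.3 CPM with vehicle. Neither gene's groups overlapped, with log2 fold changes of 1.44 ± 0.05 (adjusted p = 4.7e-11) and 1.32 ± 0.07 (adjusted p = 2.1e-09). The 2 multifunctional enzymes of this path went in opposite directions. HSD17B4, which handles branched and very long chains, was at 398 ± 6.76 CPM with androgen and 253 ± 4.71 CPM with vehicle (log2 fold change 0.63 ± 0.04), and EHHADH, which handles straight chains and dicarboxylic acids, was at 7.19 ± 0.365 and 12.3 ± 1.70 CPM (log2 fold change -0.81 ± 0.12). AMACR was at 27.1 ± 2.18 and 14.4 ± 1.62 CPM. A readthrough gene, C1QTNF3-AMACR, covers 61.4% of AMACR's exon bases, so reads there cannot be assigned to 1 gene.

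The 5 uptake genes tested differed by less than 2-fold with androgen. SLC27A4 and SLC27A1, fatty acid transport proteins, were higher by 0.55 and 0.45 on the log2 scale, and SLC27A2, a synthetase for very long chains, was lower, at 20.7 ± 1.98 against 31.1 ± 1.70 CPM (log2 fold change -0.62 ± 0.08). SLC27A5 and SLC27A3 had log2 fold changes of 0.22 and -0.44. The ketone use genes OXCT1, which activates acetoacetate, and ACAT1, which splits acetoacetyl-CoA, had log2 fold changes of -0.39 ± 0.05 and -0.15 ± 0.04.

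**Figure D2:**
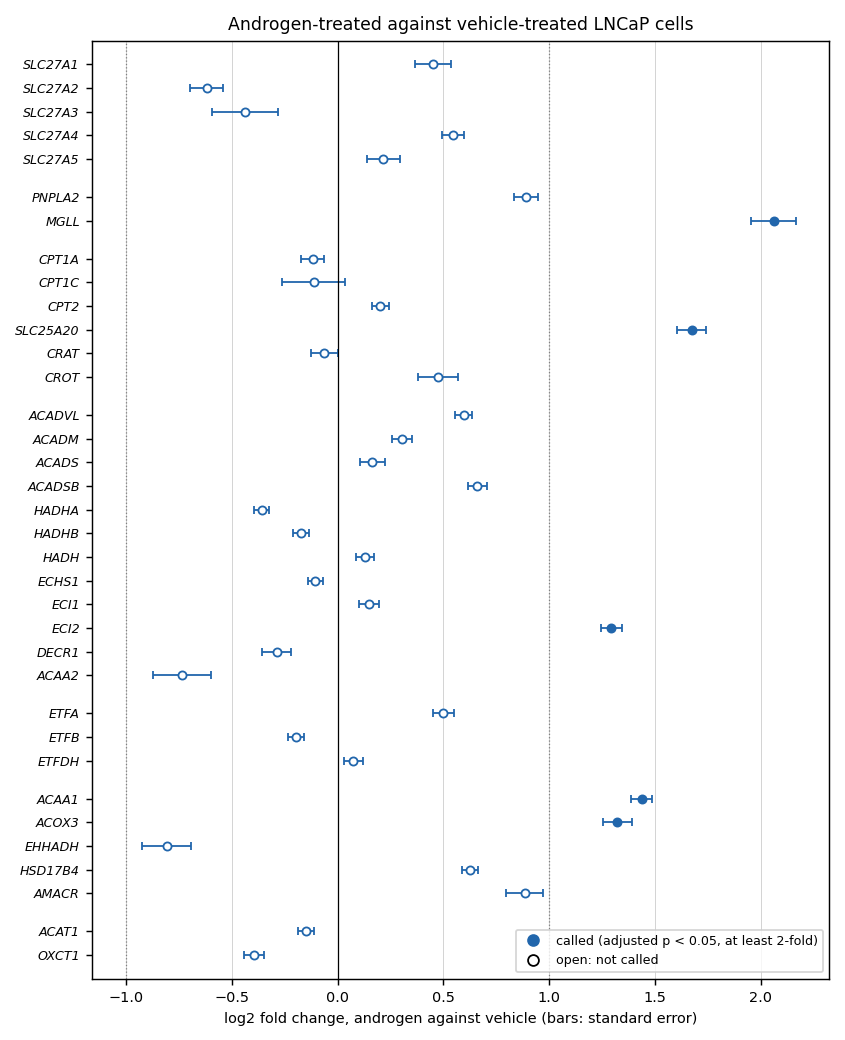
Log2 fold change of androgen-treated against vehicle-treated LNCaP cells, with standard errors, for the 35 genes tested, ordered by role; filled points were called and dotted lines mark 2-fold. The 5 filled points, from 1.29 (ECI2) to 2.06 (MGLL), lie to the right, and no gene lies beyond 2-fold to the left.

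ACADL, the long-chain acyl-CoA dehydrogenase, stayed under the filter. It had 19, 12 and 17 counts with androgen, 1 count in each vehicle library and 0 counts in each PC3 library. The androgen-treated libraries were above all others, with a ratio of 14.9 to vehicle (95% interval 4.81 to 74.9, exact, counting error only) and a level at least 18.7-fold higher than in PC3, taking 3 counts over the PC3 group as the floor. Its level with androgen was 0.770 ± 0.158 CPM, and per kilobase it stood at 0.306 CPM, beside 295 CPM for ACADVL.

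**Figure D3:**
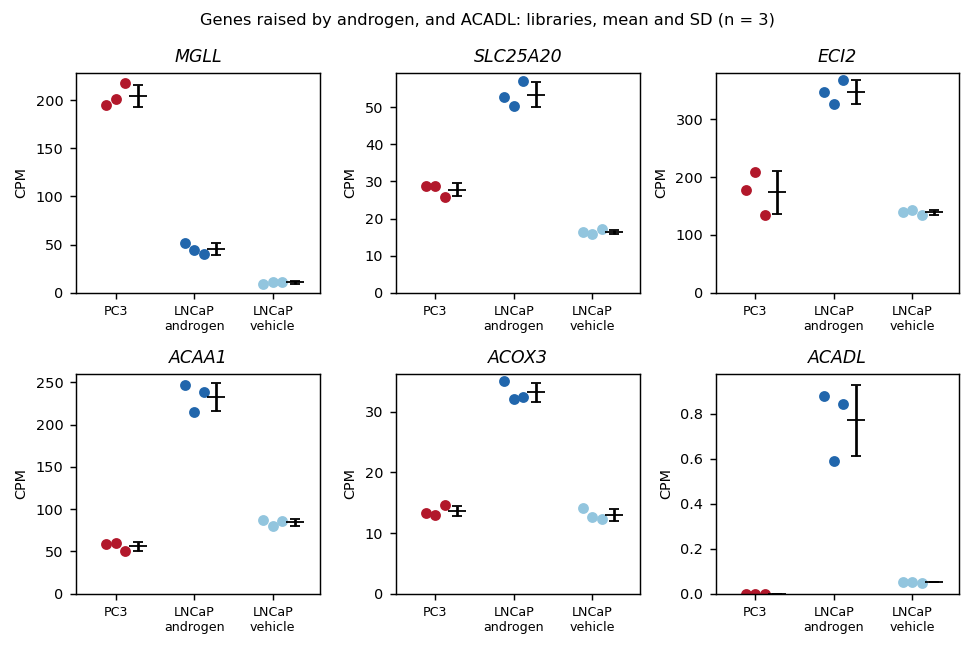
CPM in each library (points) with the mean and SD of the 3 libraries (black) for the 5 genes called higher with androgen and for ACADL, each panel on its own axis from 0. In LNCaP cells every androgen-treated library is above every vehicle library in all 6 panels, and in PC3 cells MGLL is higher still, at 195 to 218 CPM.

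The promoters of 3 of the 5 called genes were in the table of RefSeq windows used here (GRCh38.p14), and the 250 bases before each start are shown to let the genes that rose together be compared. They are written 5′ to 3′ on the strand of the gene, and capitals mark the GC box GGGCGG or its reverse complement CCGCCC.
SLC25A20 (chr3:48898883-48899132, minus strand): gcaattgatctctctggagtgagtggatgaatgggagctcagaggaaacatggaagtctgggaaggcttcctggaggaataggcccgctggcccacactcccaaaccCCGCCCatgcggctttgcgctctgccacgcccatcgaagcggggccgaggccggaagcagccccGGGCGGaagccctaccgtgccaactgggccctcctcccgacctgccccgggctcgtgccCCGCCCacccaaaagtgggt
ECI2 (chr6:4135576-4135825, minus strand): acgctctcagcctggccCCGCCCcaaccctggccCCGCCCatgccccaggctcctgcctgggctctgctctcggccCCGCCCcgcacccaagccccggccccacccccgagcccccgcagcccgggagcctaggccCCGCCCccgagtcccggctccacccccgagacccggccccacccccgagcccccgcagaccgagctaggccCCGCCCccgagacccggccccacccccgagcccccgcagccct
ACOX3 (chr4:8440724-8440973, minus strand): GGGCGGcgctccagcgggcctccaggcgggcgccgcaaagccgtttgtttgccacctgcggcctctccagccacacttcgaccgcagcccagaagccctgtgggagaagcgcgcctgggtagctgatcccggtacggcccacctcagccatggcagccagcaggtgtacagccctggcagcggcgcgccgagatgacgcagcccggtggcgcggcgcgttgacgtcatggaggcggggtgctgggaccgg
They hold 3, 5 and 1 GC boxes. A GC box was present in 42.6% of all 35116 windows of the same length and in 31 of the 49 windows of the 34 members that have one. The core AGAACA of the androgen response element, searched on both strands, was present in 12.4% of all windows and in 3 of the 49 member windows, those of CD36 and HADH, and in none of the 3 shown. The full palindromic androgen response element, which contains that core, was in no member window and in 0.00285% of all windows, and the direct-repeat PPAR response element was in no member window and in 0.0171% of all. These are matches of letters in a short window and show no binding.

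The other comparisons set PC3 against each LNCaP group, and they share the PC3 libraries, and each shares its LNCaP libraries with the androgen comparison. Against androgen-treated LNCaP cells, 7 of 37 tested genes were called higher in PC3 (18.9%, beside 24% of all 12541 genes tested) and 19 lower (51.4%, beside 22.1%). Against vehicle-treated LNCaP cells, 5 of 37 were called higher (13.5%, beside 22.2% of 12686 genes) and 15 lower (40.5%, beside 21%). Both counts of genes called higher include FABP4 and FABP5, which passed the filter only through the PC3 libraries. Both counts of genes called lower include SLC27A2, which passed it only through the LNCaP libraries. By the adjusted p-value alone, 9 were higher and 26 lower against androgen-treated cells, beside 42.9% and 41.1% of all genes, and 9 were higher and 21 lower against vehicle, beside 42.6% and 40.8%. The median log2 fold change over the members was -1.01 and -0.61, beside 0.04 and 0.03 over all genes tested.

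FABP4 and FABP5 were far higher in PC3 cells, and they passed the filter only through the PC3 libraries. A test of them could therefore come out only as higher in PC3, so their counts are given. FABP4, the binding protein best known from adipocytes, had 533, 647 and 259 counts in PC3, 2, 0 and 0 with androgen and 0, 0 and 1 with vehicle. The ratio to the androgen group was 615 (95% interval 170 to 5083) and that to vehicle 1148 (206 to 45369), in counts scaled by library size. FABP5, the epidermal form, had 1284, 1691 and 886 counts in PC3, 15, 0 and 1 with androgen and 2, 1 and 0 with vehicle.

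For FABP5 the ratio to vehicle was 1027 (95% interval 351 to 4980). The fitted log2 fold change of FABP5 against androgen-treated cells was 7.67 ± 0.62, and its direction was fixed by the filter. Of its 16 counts with androgen, 15 were in replicate 1, the library with the highest PC3 marker level. There FABP5 stood at 1.28% and FABP4 at 0.458% of their PC3 means, beside 0.897% for the PC3 markers, and whether these reads came from PC3 RNA was not tested. Without that library the log2 fold changes against androgen-treated cells were 10.79 for FABP5 and 11.83 for FABP4. Of the 74-base stretches of FABP5 transcripts, 31.6% recur elsewhere in the genome or in other transcripts. FABP5 (chr8:81280536-81284777) and FABP4 (chr8:81478419-81483236) lie 193.6 kb apart. The adipocyte markers, at most 0.866 CPM in sum, were near 0 in the PC3 libraries, where FABP4 had 20.2 ± 9.49 CPM.

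The heart form FABP3 had 11, 8 and 13 counts in PC3, 0 in each androgen-treated library and 1, 1 and 0 with vehicle. PC3 was above both LNCaP groups, at least 9.12-fold above the androgen group and with a ratio of 12.8 to vehicle (95% interval 3.26 to 110). CD36, the scavenger receptor that takes up long chains, had 1, 0 and 2 counts in PC3, 0, 0 and 4 with androgen and 6, 2 and 6 with vehicle. It stayed under the filter, with a ratio of vehicle to PC3 of 5.85 (95% interval 1.63 to 31.7). SLC27A6 had between 0 and 3 counts in every library.

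SLC27A2 (chr15:50182196-50236385) showed the reverse of the FABP pattern. It had 0.598, 1.03 and 0.787 CPM in PC3, 20.2, 22.8 and 19.0 CPM with androgen and 31.6, 29.2 and 32.5 CPM with vehicle. The PC3 libraries lay more than 10-fold below every LNCaP library. SLC27A2 passed the filter only through the LNCaP libraries, so a test of it could come out only as lower in PC3. Its counts were 15, 23 and 20 in PC3, 437, 466 and 382 with androgen and 604, 547 and 654 with vehicle. The fitted log2 fold changes were -4.69 ± 0.19 and -5.29 ± 0.16 against the androgen and vehicle groups. The other 4 SLC27A genes tested were within 2-fold in both comparisons, from -0.80 (SLC27A1) to 0.69 (SLC27A3) on the log2 scale.

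Among the lipolysis genes, MGLL had 195, 201 and 218 CPM in PC3. This was above all LNCaP libraries, with log2 fold changes of 2.16 ± 0.10 (adjusted p = 4.38e-07) against androgen-treated and 4.24 ± 0.11 (adjusted p = 3.02e-08) against vehicle-treated cells. PNPLA2 was at 96.5 ± 25.0 CPM in PC3, between the LNCaP groups, with log2 fold changes of -0.28 ± 0.17 (adjusted p = 0.164) and 0.63 ± 0.17. LIPE, the hormone-sensitive lipase, had 26, 34 and 20 counts in PC3 and 0 to 2 in each LNCaP library, with ratios of 22.8 (95% interval 7.52 to 113) and 31.9 (8.55 to 268). LPL, which frees fatty acids from circulating lipoproteins, had 0 counts in each PC3 library, 0, 0 and 1 with androgen and 1, 2 and 2 with vehicle, so it was at or near 0 in every library. Counts of 0 in the PC3 group allow up to 0.0413 CPM.

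The CPT1 isoforms differed in direction between the lines. CPT1C (chr19:49690898-49713731), the brain form, which resides in the endoplasmic reticulum, had 26.7, 26.2 and 31.5 CPM in PC3, 4.02, 4.27 and 3.33 CPM with androgen and 3.82, 4.64 and 3.87 CPM with vehicle. PC3 was higher by 2.85 ± 0.14 (adjusted p = 4.88e-07) and 2.75 ± 0.13 (adjusted p = 5.04e-07) on the log2 scale. CPT1A was lower in PC3, at 98.9 ± 16.7 CPM against 238 ± 18.9 and 253 ± 4.77 CPM, with log2 fold changes of -1.28 ± 0.13 and -1.38 ± 0.12. Per kilobase, CPT1A stood at 18.9 ± 3.18 and CPT1C at 9.89 ± 1.04 in PC3, beside 45.5 ± 3.6 and 1.36 ± 0.171 in androgen-treated LNCaP cells. The muscle form CPT1B had 10, 18 and 19 counts in PC3, 5, 4 and 5 with androgen and 10, 12 and 9 with vehicle, and 66.4% of its exon bases are shared with the readthrough gene CHKB-CPT1B.

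CPT2 (chr1:53196792-53214197), the transferase of the inner membrane, had 28.8, 28.5 and 23.6 CPM in PC3, 131, 122 and 124 CPM with androgen and 106, 107 and 109 CPM with vehicle. PC3 lay below every LNCaP library, with log2 fold changes of -2.24 ± 0.09 (adjusted p = 1.74e-07) and -2.02 ± 0.09 (adjusted p = 2.92e-07). CRAT, which exports acetyl groups as acetylcarnitine, was also lower, by -1.64 and -1.69 on the log2 scale. SLC25A20, at 27.8 ± 1.78 CPM, lay between the androgen-treated and the vehicle-treated cells, with log2 fold changes of -0.95 ± 0.08 and 0.74 ± 0.08. CROT, the peroxisomal octanoyltransferase, had -0.30 and 0.19.

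Of the 12 mitochondrial beta-oxidation genes tested, 7 were called lower and 2 higher in PC3 than in androgen-treated cells (58.3% and 16.7%, beside 22.1% and 24% of all genes). Against vehicle, 5 were called lower and 1 higher (41.7% and 8.33%, beside 21% and 22.2%). ACADSB (chr10:123008979-123058290), which acts on short branched chains from isoleucine, had 23.5, 26.6 and 20.7 CPM in PC3, 246, 243 and 219 CPM with androgen and 146, 146 and 146 CPM with vehicle. Every PC3 library was below every LNCaP library, with the largest log2 fold changes of the 12 genes, -3.33 ± 0.10 (adjusted p = 6.14e-08) and -2.65 ± 0.09 (adjusted p = 1.07e-07).

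HADH (chr4:107989714-108035241), the 3-hydroxyacyl-CoA dehydrogenase for medium and short chains, had 29.5, 36.2 and 18.0 CPM in PC3, 133, 139 and 131 CPM with androgen and 123, 115 and 122 CPM with vehicle. PC3 replicate 3 was the lowest of the PC3 libraries, and all 3 lay below every LNCaP library, with log2 fold changes of -2.28 ± 0.22 (adjusted p = 2.38e-05) and -2.13 ± 0.22 (adjusted p = 4.05e-05). ACADM, ACADS and ECI1 were called lower against both groups, with log2 fold changes from -1.63 to -1.20. ACADVL was lower by -1.55 ± 0.09 against androgen-treated cells and by -0.94 ± 0.09 against vehicle, where it was not called. ECHS1 stayed just under 2-fold in both, at -0.86 and -0.95.

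DECR1, the reductase needed for polyunsaturated chains, and ACAA2, the mitochondrial thiolase, were the members of this step called higher in PC3. DECR1 was at 131 ± 22.1 CPM in PC3, 28.8 ± 1.36 CPM with androgen and 34.5 ± 3.01 CPM with vehicle, with log2 fold changes of 2.17 ± 0.13 (adjusted p = 1.29e-06) and 1.91 ± 0.13 (adjusted p = 3.99e-06). ACAA2 was at 25.8 ± 4.58, 8.70 ± 1.42 and 14.2 ± 2.26 CPM, called against androgen-treated cells (1.55 ± 0.17) but not against vehicle (0.84 ± 0.17). The trifunctional protein genes hardly differed between the lines, with HADHA at 0.39 and 0.05 and HADHB at -0.11 and -0.27 on the log2 scale. ECI2, at 174 ± 37.2 CPM in PC3, was called lower against androgen-treated cells (-1.01 ± 0.15) and not called against vehicle (0.30 ± 0.14). The first call sat at the 2-fold limit, with a log2 fold change of -0.88 without PC3 replicate 3 and -0.97 without androgen replicate 3.

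All 3 genes of the electron transfer flavoprotein were called lower in PC3 against both groups, beside 22.1% and 21% of all genes against the androgen and vehicle groups. ETFA (chr15:76188555-76311730), the alpha subunit, had 68.3, 70.3 and 64.0 CPM in PC3, 424, 381 and 382 CPM with androgen and 297, 257 and 268 CPM with vehicle. The PC3 libraries lay close together and below every LNCaP library, with log2 fold changes of -2.56 ± 0.07 (adjusted p = 4.39e-08) and -2.04 ± 0.07 (adjusted p = 1.22e-07). ETFDH had -1.45 ± 0.08 and -1.35 ± 0.08, and ETFB had -1.11 ± 0.14 and -1.28 ± 0.15. For ETFB the call against androgen-treated cells was lost without PC3 replicate 3, at -0.96, and 11.2% of the stretches of its transcripts recur elsewhere.

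In the peroxisomal path 4 of 5 genes were called lower in PC3 than in androgen-treated cells, beside 22.1% of all genes, and 2 of 5 than in vehicle-treated cells, beside 21%. HSD17B4 was at 88.3 ± 3.90 CPM in PC3, with log2 fold changes of -2.19 ± 0.06 and -1.54 ± 0.06, and AMACR at 5.91 ± 0.892 CPM, with -2.21 ± 0.14 and -1.31 ± 0.15. The androgen-raised genes ACAA1 and ACOX3 were lower than in androgen-treated cells, by -2.07 ± 0.09 and -1.29 ± 0.09 on the log2 scale, but differed by less than 2-fold from vehicle-treated cells, at -0.61 ± 0.08 and 0.05 ± 0.10. ACOX3 stood at 13.6 ± 0.842 CPM in PC3 and 13.0 ± 1.03 CPM with vehicle. EHHADH was again the exception, at 15.9 ± 2.13 CPM in PC3, with log2 fold changes of 1.13 ± 0.13 (adjusted p = 6.3e-05) and 0.34 ± 0.14 (adjusted p = 0.0516).

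OXCT1 (chr5:41730065-41870425), the enzyme that commits ketone bodies to oxidation, had 17.3, 19.9 and 9.21 CPM in PC3, 153, 161 and 144 CPM with androgen and 209, 191 and 191 CPM with vehicle. Every PC3 library was at least 7-fold below every LNCaP library, and replicate 3 was the lowest, with log2 fold changes of -3.32 ± 0.25 (adjusted p = 4.96e-06) and -3.70 ± 0.25 (adjusted p = 3.24e-06). ACAT1 was lower by -0.60 ± 0.14 and -0.73 ± 0.14, below the 2-fold limit.

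**Figure D4:**
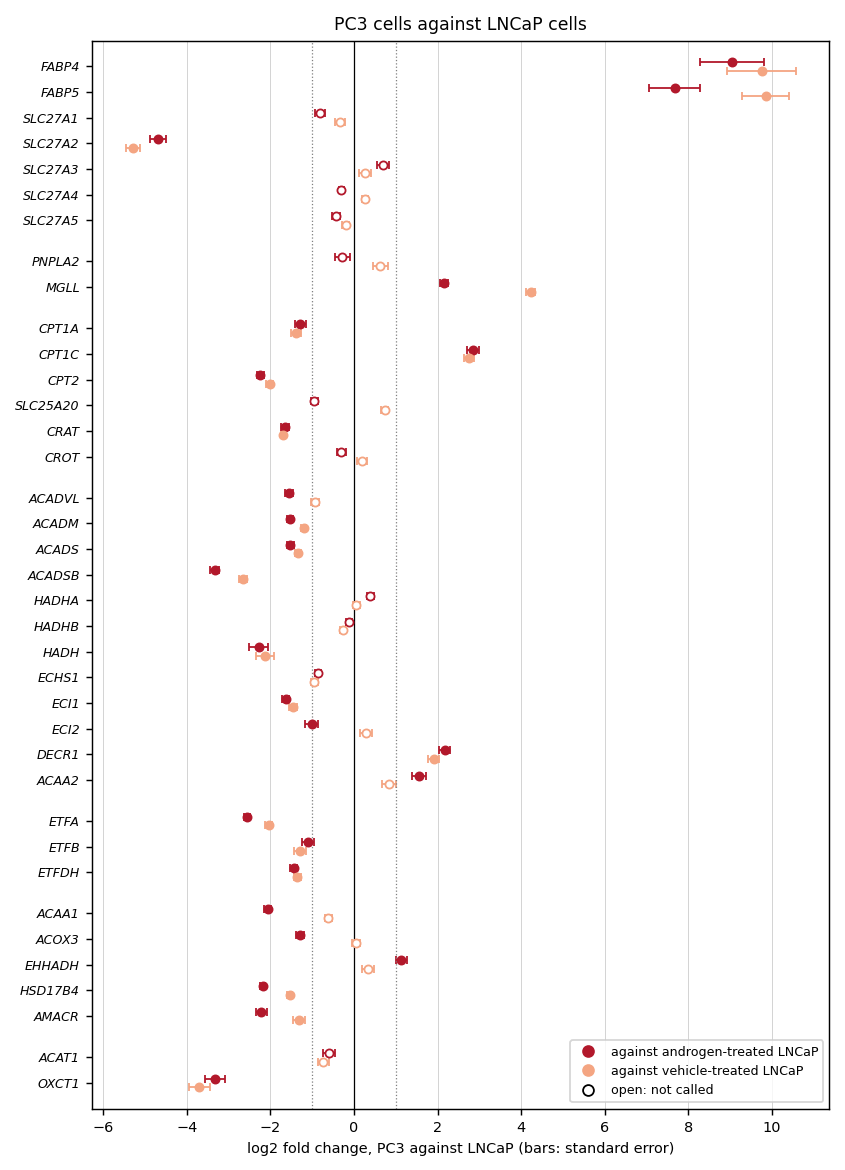
Log2 fold change of PC3 against androgen-treated (dark) and vehicle-treated (light) LNCaP cells, with standard errors, for the 37 genes tested, ordered by role; filled points were called and dotted lines mark 2-fold. FABP4, FABP5, MGLL, CPT1C and DECR1 lie to the right of 2-fold against both groups, and SLC27A2, OXCT1 and ACADSB reach furthest left, down to -5.29.

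The other genes of fatty acid metabolism, 74 symbols listed by function, were counted in the same tests. With androgen, 5 of 56 tested were called higher (8.93%) and 1 lower (1.79%), beside 6.54% and 7.49% of all genes. In PC3, 13 of 60 were called higher and 20 lower against androgen-treated cells (21.7% and 33.3%, beside 24% and 22.1% of all genes), and 12 and 12 against vehicle (20% each, beside 22.2% and 21%). Apart from the 1.79% lower with androgen and the 33.3% lower against androgen-treated cells, these shares lay near those of all genes.

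The largest androgen response among all the listed genes tested was outside the 44. ACSL3, which joins long-chain fatty acids to coenzyme A, had 4080.0, 4380.0 and 4043 CPM with androgen and 235, 235 and 246 CPM with vehicle, a log2 fold change of 4.1 ± 0.05 (adjusted p = 5.32e-15). The PC3 libraries, at 261 to 263 CPM, lay near vehicle. DBI, the acyl-CoA binding protein, was at 1026 ± 56.7 CPM with androgen and 202 ± 9.45 CPM with vehicle (log2 fold change 2.31 ± 0.05), and ACAD8, the isobutyryl-CoA dehydrogenase, rose by 1.65 ± 0.07 on the log2 scale. In each of these genes the androgen-treated libraries stood above both other groups.

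Among the ketone body genes, BDH1, the mitochondrial 3-hydroxybutyrate dehydrogenase, was at 3.96 ± 0.939 CPM in PC3, 56.1 ± 0.688 CPM with androgen and 42.1 ± 2.58 CPM with vehicle. BDH1 and OXCT1 were therefore both called lower in PC3 against both groups. BDH2, the cytosolic relative, was the 1 gene of the 74 called lower with androgen, at -1.06 ± 0.15, a call that was lost without androgen replicate 3 (-0.99) or vehicle replicate 2 (-0.95). By library size without TMM factors, as the filter was applied, BDH2 was under 3 CPM in every androgen-treated library. It passed only through the vehicle libraries in that comparison and only through PC3 against the androgen group. So it could be called only as lower with androgen, and only as higher in PC3 than with androgen. It was higher in PC3, at 12.2 ± 0.473 CPM against 2.92 ± 0.327 and 5.98 ± 0.749 CPM.

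Of 9 lipid droplet and lipase regulator genes tested, 3 were called higher in PC3 than in androgen-treated cells (33.3%, beside 24% of all genes) and 4 than in vehicle-treated cells (44.4%, beside 22.2%). Within LNCaP cells only 6 genes of this list passed the filter. The others passed it only through the PC3 libraries, so they could be called only as higher in PC3. The shares above are therefore partly set by the filter. PPARG, the nuclear receptor that directs fat storage in adipocytes, was called higher against both groups. PPARG had 288, 253 and 308 CPM in PC3 and between 5.16 and 7.16 CPM in the LNCaP libraries, with log2 fold changes of 5.38 ± 0.11 (adjusted p = 1.51e-08) and 5.61 ± 0.12 (adjusted p = 1.56e-08). PLIN2, a coat protein of lipid droplets, was at 49.9 ± 0.892 CPM in PC3, 0.620 ± 0.290 CPM with androgen and 0.276 ± 0.0339 CPM with vehicle. G0S2, an inhibitor of the lipase PNPLA2, had 879, 1038 and 1368 counts in PC3, 12, 0 and 0 with androgen and 4, 0 and 0 with vehicle. Its androgen counts were all in replicate 1, the library with the highest PC3 marker level. PDK4, a kinase that holds back glucose oxidation, had 90, 87 and 110 counts in PC3, 3, 3 and 2 with androgen and 0 in each vehicle library, a ratio of 30.7 to the androgen group (95% interval 15.4 to 71.7), and it was at least 76.3-fold higher than vehicle.

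The remaining named genes of the pathway were lower in PC3, but the list of acyl-CoA synthetases and thioesterases held calls in both directions. Of its 13 genes tested, 4 were called higher and 4 lower against androgen-treated cells (30.8% each, beside 24% and 22.1% of all genes). Against vehicle, 3 were called higher and 2 lower (23.1% and 15.4%, beside 22.2% and 21%). ACSL1, the synthetase of liver and fat, was at 32.9 ± 4.35 CPM in PC3, 562 ± 15.4 CPM with androgen and 483 ± 34.6 CPM with vehicle, with log2 fold changes of -4.11 ± 0.11 and -3.90 ± 0.11. ACSM3, a medium-chain synthetase, was at 1.89 ± 0.371, 43.4 ± 0.227 and 36.5 ± 0.338 CPM. It passed the filter only through the LNCaP libraries, so it could be called only as lower in PC3. PHYH, which starts the oxidation of phytanic acid in peroxisomes, had log2 fold changes of -1.68 and -2.23, and the peroxisomal reductase DECR2 had -1.84 and -1.80. DECR2 and the mitochondrial DECR1 thus differed in opposite directions between the lines. ACAD9, a dehydrogenase also needed to assemble respiratory complex I, had -1.49 and -1.43, and PCCB and MMUT, which bring propionyl-CoA from odd chains into the citric acid cycle, had -2.07 and -1.89 and -1.33 and -1.32.

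**Figure D5:**
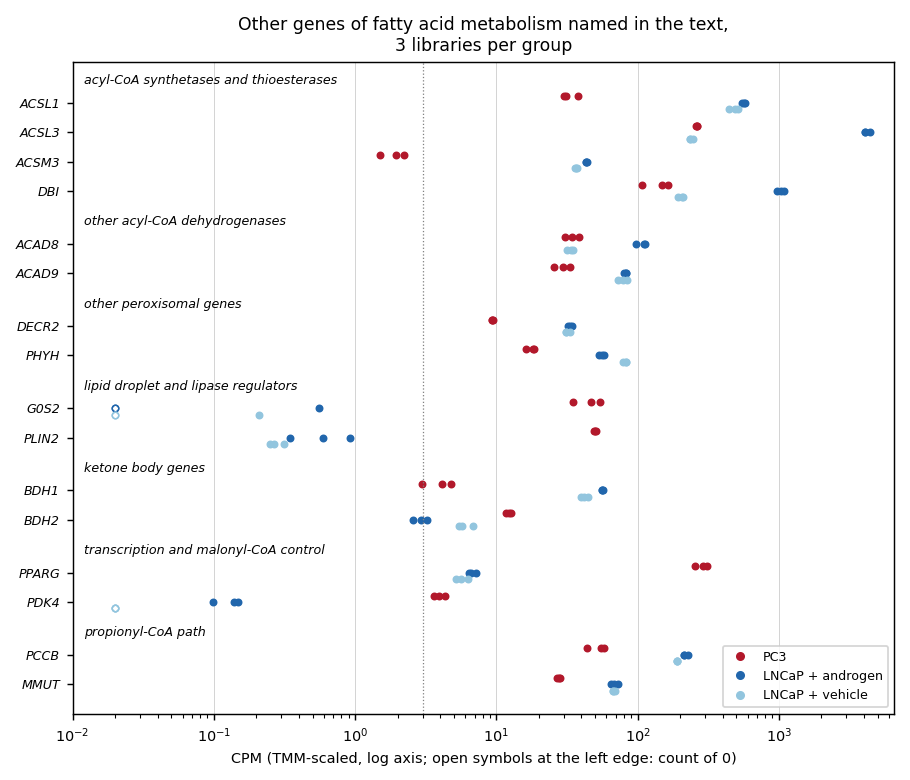
CPM (log axis) in the 3 libraries of each group for the genes of fatty acid metabolism outside the 44 that are named in the text; open symbols at the left edge are counts of 0 and the dotted line is 3 CPM. ACSL3 and DBI stand apart with androgen, and PPARG, PLIN2, G0S2 and PDK4 stand apart in PC3.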

How the data were processed

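Poly(A) RNA was sequenced from 9 libraries (74-base single-end reads). The authors trimmed adapters with cutadapt, aligned to GRCh38 with STAR and removed PCR duplicates with UMI-tools, and the submitters' processing notes give versions 4.1, 2.7.7a and 1.1.2. The study's methods name other versions of cutadapt and STAR, and the gene annotation is not given in the sources used here. The authors deposited raw counts, whole numbers of reads per gene symbol with no normalization, taken from the forward-strand column of STAR, and the other strand held 2.33% to 3.06% of the reads assigned to genes.

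TMM factors and the quasi-likelihood F test came from edgeR 4.0.16 (R 4.3.3) and the 6 libraries of each comparison, for genes over 3 CPM in at least 3 of them, with Benjamini-Hochberg adjustment over all genes tested. The study used a likelihood ratio test with a batch term, whose batches are not named in the sources used here. Standard errors were taken as the log2 fold change over the square root of F. Ratios for genes with few counts have exact 95% conditional intervals, and a fold against a group with 0 counts is a bound set at 3 counts over the group. Such limits cover counting error only, and they are tighter in the deeper libraries. Lengths and overlaps come from GENCODE 44, in which all 118 listed symbols were found.

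The genes and lists were chosen with earlier results of these data known. Values by library are given for genes called with androgen, for those called in the same direction with a log2 fold change of at least 2 in size in both PC3 comparisons, and for those that fail the filter throughout, and of each other list at most the 2 most changed called genes are named per comparison. A gene that this rule covers is not reported here, while the counts include it. To see whether replicate numbers pair libraries, each library's deviation from its group mean was taken over 10015 genes. LNCaP libraries with the same number, 1 with androgen and 1 with vehicle, gave correlations of 0.15, 0.23 and 0.21. Those with different numbers gave -0.27 to 0.10. PC3 and LNCaP libraries with different numbers reached 0.22, so correlations of this size do not settle whether the LNCaP groups are paired. The labels say nothing of it. For PC3 the highest correlation with an LNCaP library of the same number was 0.08. The steps were tested on simulated data. Alternatives were DESeq2 1.42.0 size factors or its Wald test, the likelihood ratio test, the replicate block, other filters, unstranded counts, 1 fit of all 9 libraries, the adjusted p-value alone and leaving out each library.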

Additional observations from a re-analysis of the deposited data

Results flagged for a closer look

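Reads on the strand opposite to a gene were not used in any comparison, and in 3 of the 44 genes they were both a larger share of the gene's reads than in any whole library (at most 3.06%) and higher in every androgen-treated than in every vehicle-treated LNCaP library. The mean was 1.08 CPM against 0.654 CPM for FABP3, 4.26 CPM against 2.52 CPM for SLC27A5 and 1.13 CPM against 0.347 CPM for CPT1C. For FABP3 these reads were 84.7% of all its reads, 188 in number, so a count without regard to strand would mostly measure the other strand. For SLC27A5 they were 11.5% and for CPT1C 3.91%. In PC3 libraries they were 29, 22 and 32 reads for FABP3, beside 23, 19 and 25 with androgen and 9, 14 and 15 with vehicle. They were 9, 5 and 5 in PC3 for SLC27A5 and 3, 2 and 8 for CPT1C. The share of all genes that meet the same rule was not counted, so the number of members meeting it has no reference. What these reads come from was not tested.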

How the results depend on the processing

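With no filter on low counts, 6 of the 44 genes were called higher and 1 lower with androgen, among 2941 genes called in all, against 5, 0 and 1641. The genes added were ACADL and CPT1B with androgen, FABP3, LIPE, CPT1B and ACADL for PC3 against the androgen group, and FABP3, LIPE, CD36 and LPL against vehicle, and the counts over all genes were 9147 and 8713 for PC3 against the androgen-treated and vehicle-treated groups. With the adjusted p-value alone, 20 were higher and 11 lower with androgen among 8763 genes, all genes passing were 10530 and 10577 in the PC3 comparisons, and 9 members were higher in PC3 than in vehicle-treated cells. With at least 10 counts in every library, 3 members were called higher there, because FABP4 and FABP5 are left out.

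The replicate block gave 5 and 0 members with androgen, 7 and 19 for PC3 against androgen-treated and 5 and 15 against vehicle-treated cells, among 1638, 5756 and 5495 genes, and changed no member's call. For PC3 the same-number correlations were -0.06, 0.06 and -0.19 to the androgen group and 0.08, -0.20 and -0.02 to vehicle, with no sign of pairing.

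Without each library in turn, members called lower ranged from 17 to 19 against androgen-treated and 15 to 16 against vehicle-treated cells, and the other member counts did not move. ACADVL (-1.06, without PC3 replicate 3) and ECHS1 (-1.01, without PC3 replicate 2) then passed 2-fold against vehicle, and with at least 10 counts ECI2 (-0.98) missed it against the androgen group. Fitted log2 fold changes against groups with almost no counts rest on single libraries: against vehicle, that of FABP4 was 11.79 without replicate 3, and those of FABP5 and G0S2 were 10.73 and 12.97 without replicate 1, while that of G0S2 against the androgen group was 12.99 without replicate 1.

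Log2 fold changes that changed sign all lay near 0 and were not called. With androgen they were CPT1C at 0.14 with unstranded counts and MMUT at 0.0085 with no filter, and, over the libraries left out in turn, CRAT (-0.12 to 0.0088), ACAD9 (-0.011 to 0.075), DECR2 (-0.0011 to 0.061) and MMUT (-0.039 to 0.016). For PC3 against vehicle they were HADHA (-0.0014 to 0.11), ACOX3 (-0.031 to 0.11) and ACAD8 (-0.086 to 0.098), also over the libraries left out in turn. The cause was not tested. DESeq2 size factors, the Wald test, the likelihood ratio test, unstranded counts and 1 fit of all 9 libraries left the counts of called members as they were. At this depth, no ratio is given for a gene with no library over 3 counts in either group compared.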
